A study of Homo sapiens with 6 samples.

Results

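ATF4, CHOP (the product of DDIT3) and the genes through which they act form a group of 10 here, namely ATF4, ATF5, DDIT3, CEBPB, TRIB3, CHAC1, DDIT4, SESN2, STC2 and VLDLR. Every probe annotated to these genes under a current or older symbol was taken, which gave 13 of the 47310 probes. The annotation used lists 30115 of the 47310. The genes were chosen with their levels in this same contrast known, so the differences between the lines are given below as a description, with no p-value for a gene of the group. How many of them passed the threshold of the fit over all genes is stated for completeness and supports nothing. RNA was measured in HCT116 cells, a human colorectal carcinoma line, on 1-colour Illumina beadchips, on which a probe is brighter the more of its matching RNA is present. There were 3 arrays of PTTGKO cells (PTTG1-/-, the derivative that lacks PTTG1, the securin that holds separase back until anaphase) and 3 of WT cells, the PTTG1+/+ parent, with no treatment named in the labels. Both lines came from another laboratory, and no source used here gives the number of clones, so loss of PTTG1 and any further change in the derivative cannot be told apart. Nor does a source say that the arrays of a line hold separate cultures, so p-values measure the spread between arrays, which may be technical.

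The integrated stress response starts when kinases that sense unfolded proteins, missing amino acids, lack of heme or double-stranded RNA phosphorylate the initiation factor eIF2 alpha. Most translation then slows, while upstream reading frames let ribosomes reach the coding sequence of ATF4. ATF4 is a bZIP transcription factor that binds promoters together with C/EBP proteins and raises genes of amino acid supply as well as CHOP, TRIB3, CHAC1, DDIT4 and SESN2. Under lasting stress CHOP, another bZIP factor, is linked to cell death and to PPP1R15A, the subunit that directs a phosphatase back to eIF2 alpha. ATF4 is controlled largely at translation, which these arrays did not measure.

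The site through which ATF4 and C/EBP proteins act is the CARE, written TGATGNAA, and CHAC1 is the gene of the group whose RefSeq promoter window holds it. The bases before its start site are shown because they carry the single match. Capitals mark the match, which reads as the CARE on the opposite strand and lies at -209 to -202 from the start (GRCh38.p14).
CHAC1, chr15:40953221-40953470, plus strand: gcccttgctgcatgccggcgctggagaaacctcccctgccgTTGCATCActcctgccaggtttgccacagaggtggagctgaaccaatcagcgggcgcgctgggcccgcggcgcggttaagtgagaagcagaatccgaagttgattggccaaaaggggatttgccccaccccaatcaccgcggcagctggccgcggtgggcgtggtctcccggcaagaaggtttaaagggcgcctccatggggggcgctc

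Both strands of 17 promoter windows of the 10 genes were searched, each window spanning 250 bases before to 50 after a RefSeq start site. The CARE stood in 1 of the 17 windows, against 1270 of 35116 windows of all genes (3.62%). The full CRE, TGACGTCA, which shares its first letters TGA with the CARE, stood in 0 of the 17 windows and in 1.85% of all windows. A match is a string of letters and not a shown binding site, and a missing match says nothing of sites further away. Among 38 other known targets of ATF4 and CHOP with a window in the table, 14 held a CARE (36.8% of these genes, against 4.46% of all genes). CHAC1 and the 10 of these targets that were tested on the arrays are shown in a stretch around the match, each on the strand where the CARE reads forward, with the CARE in capitals (GRCh38.p14). That of SLC3A2 ends where its window ends.
CHAC1, chr15:40953251-40953280, minus strand: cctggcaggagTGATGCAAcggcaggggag
AARS1, chr16:70289675-70289704, plus strand: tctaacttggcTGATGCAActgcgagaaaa
ASNS, chr7:97872458-97872487, minus strand: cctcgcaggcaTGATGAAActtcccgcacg
ATF3, chr1:212565205-212565234, plus strand: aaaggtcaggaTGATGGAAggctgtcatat
CEBPG, chr19:33374060-33374089, plus strand: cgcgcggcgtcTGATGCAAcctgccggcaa
GARS1, chr7:30594834-30594863, minus strand: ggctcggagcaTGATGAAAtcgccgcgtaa
JDP2, chr14:75427995-75428024, plus strand: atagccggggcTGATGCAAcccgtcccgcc
NARS1, chr18:57621804-57621833, minus strand: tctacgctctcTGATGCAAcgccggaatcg
SLC1A5, chr19:46784893-46784922, minus strand: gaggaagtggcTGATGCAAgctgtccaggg
SLC3A2, chr11:62881725-62881748, minus strand: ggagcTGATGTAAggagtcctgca
SLC7A1, chr13:29595663-29595692, minus strand: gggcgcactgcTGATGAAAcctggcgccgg

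The arrays differed little in depth. Summed intensity ran between 14796418 and 16708425, and between 35.65% and 37.33% of probes were above background at a detection p under 0.05. Correlations of log2 values, taken at 1 probe per tested gene, were 0.9929 to 0.9964 between arrays of a line. Between the lines they were 0.9856 to 0.9878. PTTG1 itself was checked first. Its probe ILMN_1753196 was not well above background on the 3 PTTGKO arrays, where it measured 4.96 ± 0.12, against 10.79 ± 0.05 in WT cells (log2, SD, n = 3 each), at least 49.2-fold lower. This bound sets the mean of the bright arrays against the lowest signal that counted as above background, or the probe's own signal where higher. The other PTTG1 probe, ILMN_2042771, was 1.87-fold lower in PTTGKO cells. Where either probe lies relative to the deleted part was not analysed here.

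Levels below are log2 intensities after background correction and quantile normalization, for PTTGKO arrays 1 to 3 and then WT arrays 1 to 3. By RefSeq the genes lie on chromosomes 22 (ATF4), 19 (ATF5), 12 (DDIT3), 20 (CEBPB and TRIB3), 15 (CHAC1), 10 (DDIT4), 1 (SESN2), 5 (STC2) and 9 (VLDLR). Of the 10 genes, 9 passed the filter on dim probes, and each of those 9 had every PTTGKO array below every WT array. Over all 10642 genes tested this held for 16.7%. With limma and Benjamini-Hochberg adjustment over all genes, 8 of the 9 were lower in PTTGKO cells past an adjusted p of 0.05 and 0 were higher, while 7.79% of all genes were lower and 9.58% higher. The median difference of the 9 was -1.05, against 0.001 over all genes tested. Since this contrast chose the genes, nothing is read from these counts. Arrays of whole cultures cannot tell fewer cells that make a transcript from less of it per cell.

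**Figure D1:**
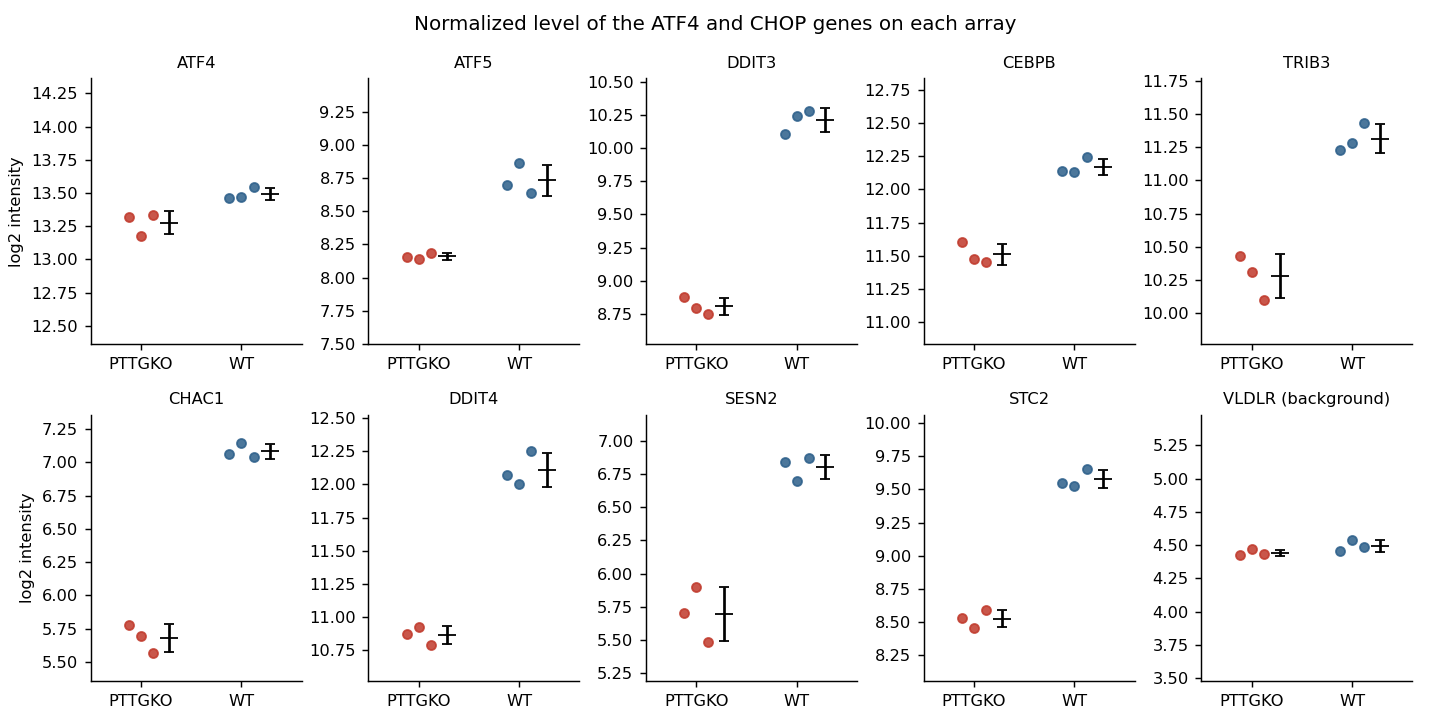
Normalized log2 intensity of the 10 genes on each PTTGKO array (red) and WT array (blue), 1 panel per gene with the same span of values, and mean ± SD beside the points (n = 3 each). In 9 panels all PTTGKO arrays lie below all WT arrays, while VLDLR is at background on all 6 arrays.

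ATF4, the factor at the head of the group, had the smallest difference. Its brightest probe measured 13.32, 13.18 and 13.33 in PTTGKO cells, against 13.46, 13.47 and 13.55 in WT cells. The lines did not overlap, but the means of 13.28 ± 0.09 and 13.49 ± 0.05 (SD, n = 3 each) lay only 1.16-fold apart (-0.22, SE 0.08), and by this probe ATF4 is the gene of the 9 that did not pass the threshold. On the unnormalized linear scale the same probe read 9788.9, 9113.9 and 11026.1 in PTTGKO cells, against 11564.1, 11101.9 and 11879.2 in WT cells, so it was bright in both lines. Its other probes did not give the same size or sign. ILMN_2358457 measured 9.11, 8.96 and 9.19 in PTTGKO cells, against 9.75, 9.56 and 9.47 in WT cells, which is 1.42-fold lower (-0.51, SE 0.10). In limma over all kept probes this probe passed the threshold, while the brightest and the dim probe did not. The dim ILMN_1783394 measured 6.28, 5.78 and 5.99 in PTTGKO cells, against 5.90, 5.62 and 5.54 in WT cells, 1.26-fold higher with arrays that overlapped. Which transcript forms the probes bind was not analysed here, and with the mean of the kept probes the difference of ATF4 was -0.13.

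**Figure D2:**
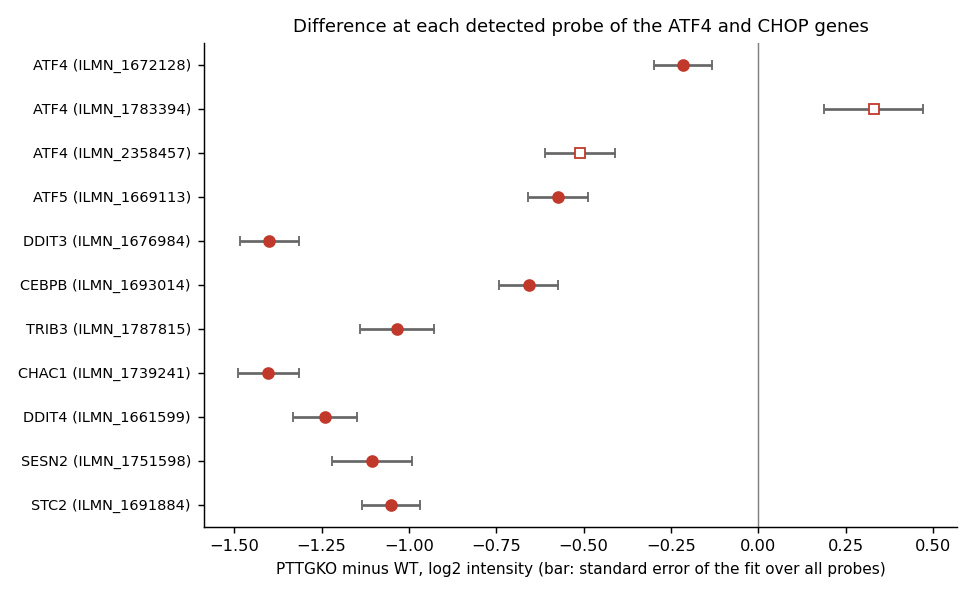
Difference in log2 intensity, PTTGKO minus WT, at each of the 11 detected probes, with the standard error from limma over all kept probes. Filled circles are the probe used for the gene, open squares the other probes of ATF4. The 3 ATF4 probes lie at -0.22, 0.33 and -0.51, and the remaining 8 between -1.40 and -0.57.

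Among the transcription factors downstream, DDIT3 stood out from ATF5 and CEBPB in size. DDIT3 measured 8.88, 8.80 and 8.75 in PTTGKO cells, against 10.11, 10.24 and 10.28 in WT cells. It was 2.64-fold lower (-1.40, SE 0.08), and its unnormalized intensity was 480.1, 476.3 and 531.9 in PTTGKO cells, against 1173.4, 1205.5 and 1287.1 in WT cells. ATF5 is a close relative of ATF4 that takes part in stress responses of mitochondria. It measured 8.15, 8.14 and 8.19 in PTTGKO cells, against 8.70, 8.86 and 8.64 in WT cells, 1.49-fold lower (-0.57, SE 0.08). The PTTGKO arrays of ATF5 lay closer together (SD 0.02) than the WT arrays (SD 0.12). CEBPB, a C/EBP factor that pairs with both ATF4 and CHOP, measured 11.60, 11.48 and 11.45 in PTTGKO cells, against 12.14, 12.13 and 12.24 in WT cells. Its level was 1.58-fold lower (-0.66, SE 0.08).

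TRIB3 encodes a pseudokinase that CHOP and ATF4 induce and that restrains AKT and ATF4 in turn. It measured 10.43, 10.31 and 10.10 in PTTGKO cells, against 11.22, 11.28 and 11.43 in WT cells, 2.05-fold lower (-1.03, SE 0.10). CHAC1 encodes an enzyme that breaks down glutathione. Its probe measured 5.78, 5.69 and 5.57 in PTTGKO cells, against 7.06, 7.14 and 7.04 in WT cells. That is 2.64-fold lower (-1.40, SE 0.08). The unnormalized intensity of CHAC1 was low, at 95.9, 92.3 and 94.3 in PTTGKO cells, against 179.1, 174.5 and 171.2 in WT cells. Without background correction its difference was -0.93, and with a normexp correction and an offset of 50 it was -0.83, where DDIT3, a brighter probe, had -1.32 and -1.30.

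DDIT4 (REDD1) and SESN2 (sestrin 2) both hold back the growth kinase complex mTORC1. DDIT4 measured 10.87, 10.93 and 10.79 in PTTGKO cells, against 12.07, 11.999 and 12.25 in WT cells. It was 2.36-fold lower (-1.24, SE 0.09), and the highest PTTGKO array lay well below the lowest WT array. SESN2 measured 5.71, 5.90 and 5.49 in PTTGKO cells, against 6.84, 6.70 and 6.87 in WT cells, 2.15-fold lower (-1.11, SE 0.11). SESN2 is dim like CHAC1. Its difference was -0.71 without background correction and -0.63 with the offset of 50.

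STC2 encodes stanniocalcin 2, a secreted glycoprotein induced in stress of the endoplasmic reticulum. It measured 8.53, 8.46 and 8.59 in PTTGKO cells, against 9.55, 9.53 and 9.66 in WT cells, 2.07-fold lower (-1.05, SE 0.08). VLDLR, the receptor for very low density lipoprotein, gave no level to compare. Both of its probes were not above background on any of the 6 arrays, with unnormalized intensities of 46.9, 49.0 and 49.0 in PTTGKO cells, against 45.9, 50.4 and 51.0 in WT cells at ILMN_1675092. No fold is given for it.

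For CEBPB, TRIB3 and DDIT4 the study also designed primers for quantitative PCR, whose readings were not used here. The primers, shown 5′ to 3′ because they are the oligos by which these transcripts were followed, were as listed.
CEBPB forward: gggcacccgcgttcatgca
CEBPB reverse: gatttaaaggcaggcggcggc
TRIB3 forward: cggaacgacggggcgagatg
TRIB3 reverse: ttctggacgggacgctcggt
DDIT4 forward: ctcgctgaccgcgctagctg
DDIT4 reverse: cgacgacgagaagcggtccc

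The order of the arrays within a line was also read for the 9 detected genes. The mean level of the 9, each centred on its own mean over 6 arrays, was -0.43, -0.47 and -0.54 on the PTTGKO arrays and 0.45, 0.47 and 0.53 on the WT arrays. PTTGKO array 3 was lowest of its line in 6 of the 9 and WT array 3 highest of its line in 7 of the 9. The same counts were not taken over all genes, so nothing is read from them about the group. PTTGKO array 3 also had the highest summed intensity of all arrays, and its part in the order was not tested.

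The genes most like this mean profile over the 6 arrays, measured by Pearson r across points that share a line and an array, were PPP1R15A (r = 0.999), PRPH (0.999), ZC4H2 (0.998), KISS1R (0.998) and BOP1 (0.998). With arrays in 2 groups such values mainly describe the difference between lines. PPP1R15A measured 9.48, 9.37 and 9.24 in PTTGKO cells, against 10.59, 10.65 and 10.69 in WT cells. PRPH, an intermediate filament protein known from neurons, was 1.61-fold lower, KISS1R, the kisspeptin receptor, 2.13-fold lower, and BOP1, a ribosome assembly factor, 1.37-fold lower. ZC4H2 was not well above background on the PTTGKO arrays and was at least 1.36-fold lower.

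Other known targets of ATF4 and CHOP, listed from textbook knowledge and without the 10 genes, were lower more often than higher. Of 40 tested, 20 fell past the threshold, 2 rose and 18 did not pass, with a median of -0.30, beside shares of 7.79% lower and 9.58% higher over all genes. In 26 of the 40 every PTTGKO array lay below every WT array, as in 16.7% of all genes. INHBE, included in the 20 and the 26, was above background on the 3 WT arrays and on 0 PTTGKO arrays. It passed the filter only through the line where it is higher, and was at least 1.27-fold lower. The 40 targets too were listed with earlier results known. PPP1R15A fell 2.43-fold (-1.28, SE 0.09, limma adjusted p = 2.4e-05). MAP1LC3B, an autophagosome protein, fell 1.91-fold (-0.93, SE 0.08, limma adjusted p = 0.000166). SLC38A2, a carrier of neutral amino acids, fell 1.75-fold (-0.81, SE 0.08, limma adjusted p = 0.000256), and PCK2, the mitochondrial form of a gluconeogenic enzyme, 1.81-fold (-0.85, SE 0.08, limma adjusted p = 0.000274). All of these had PTTGKO arrays apart from WT arrays. The 2 that rose were GDF15, a stress-induced secreted factor (1.26-fold, limma adjusted p = 0.0341), and ALDH18A1, an enzyme of proline synthesis (1.23-fold, limma adjusted p = 0.0231). Without normalization between arrays 12 of these targets fell past the threshold.

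The targets shown above with a CARE are described apart. They were split off by sequence, but from a list made with earlier results of these data known. Of the 10, 7 fell, 0 rose and 3 did not pass, with a median difference of -0.40. Of 21 tested targets whose windows hold none, 9 fell and 2 rose, with a median of -0.15. A further 9 tested targets have no promoter window here, and of these 4 fell and 0 rose, with a median of -0.29. The 4 include INHBE, which was above background in WT cells only. Among all genes tested, 7.79% were lower and 9.58% higher. The difference between these sets was not tested, and nothing is read from it. ATF3, a stress-induced bZIP factor, fell by 0.71 on the log2 scale. SLC7A1, a carrier of cationic amino acids, fell by 0.55, SLC3A2, the shared heavy chain of amino acid exchangers, fell by 0.50, and SLC1A5, a glutamine carrier, fell by 0.41. CEBPG, a C/EBP partner of ATF4, fell by 0.40 and the tRNA synthetases GARS1 and AARS1 fell by 0.31 and 0.25. JDP2, NARS1 and ASNS did not pass, with differences of -0.50, -0.19 and -0.13. ASNS, asparagine synthetase, measured 12.65, 12.65 and 12.73 in PTTGKO cells, against 12.72, 12.81 and 12.89 in WT cells, and its arrays overlapped.

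**Figure D3:**
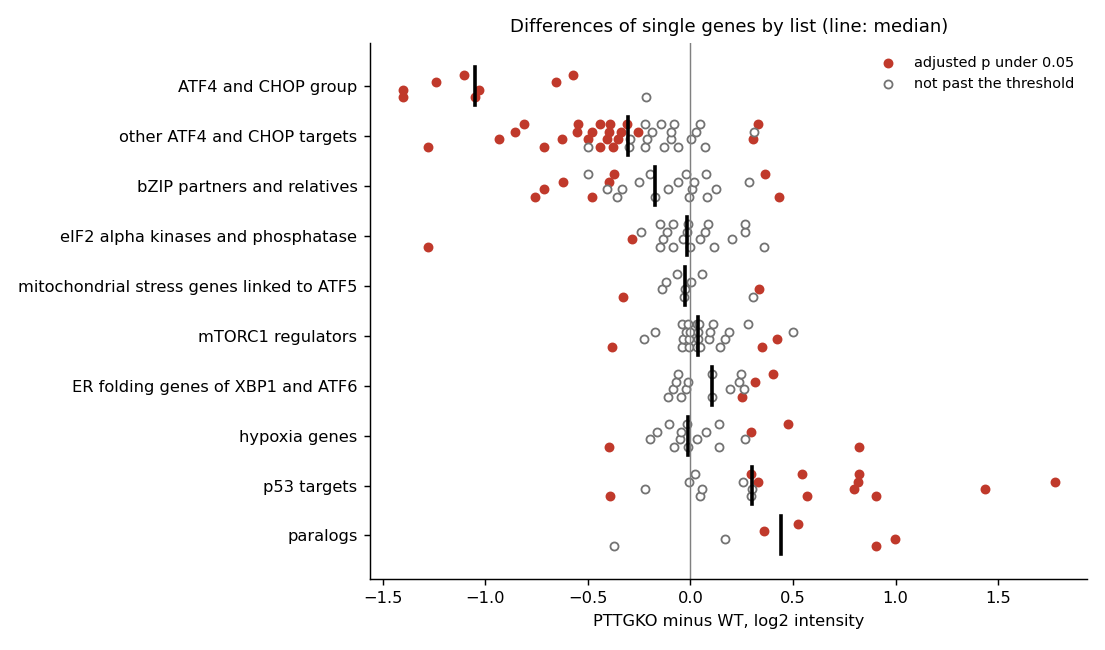
Difference in log2 intensity, PTTGKO minus WT, of each tested gene by list, with the median of each list as a black line. Red points passed an adjusted p of 0.05 in limma over all genes. The ATF4 and CHOP group has its median at -1.05 and was chosen on these values. The other targets have theirs at -0.30 and the p53 targets at 0.30.

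The step before ATF4 is the phosphorylation of eIF2 alpha and its removal. Of 21 tested genes for kinases and the phosphatase of eIF2 alpha, with its regulators, 2 fell and 0 rose, with a median of -0.02, and the share that fell is near the 7.79% of all genes. They were PPP1R15A and PPP1CB, a catalytic subunit that PPP1R15A directs (-0.29, SE 0.08, limma adjusted p = 0.036). PPP1R15A was also counted with the other targets above. EIF2AK4, the amino acid sensor GCN2, measured 8.12, 7.86 and 7.70 in PTTGKO cells, against 7.42, 7.59 and 7.61 in WT cells, and did not pass (0.36, SE 0.11, limma adjusted p = 0.0622). Phosphorylation of eIF2 alpha was not measured.

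Of 25 tested bZIP relatives and partners 6 fell and 2 rose, with a median of -0.17. Over all genes 7.79% were lower and 9.58% higher. ATF3 and CEBPG, which are among the 6, were also counted with the targets above. Besides ATF3, the falls with the smallest p were DBP (-0.76, SE 0.09), NFIL3 (-0.62, SE 0.09) and TEF (-0.48, SE 0.07), related PAR-type and repressor factors known from the circadian clock, with limma adjusted p of 0.000802, 0.0021 and 0.00266. CREB3L2 and ATF6B, bZIP factors held in the membrane of the endoplasmic reticulum, rose by 0.43 and 0.36 on the log2 scale. In the folding genes that XBP1 and ATF6 induce, 3 of 16 rose and 0 fell, with a median of 0.11. These were MANF (0.40, limma adjusted p = 0.00918), HSP90B1 (0.31, limma adjusted p = 0.0399) and PDIA4 (0.25, limma adjusted p = 0.0399). The remaining 13 folding genes did not pass, and 7 of the 16 had a negative difference. Among 10 genes of mitochondrial stress linked to ATF5, 1 fell and 1 rose, near the shares of all genes, so nothing is read from them. LONP1, a matrix protease, fell by 0.33 and SPG7, an inner membrane protease subunit, rose by 0.33.

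Paralogs of the group ran higher rather than lower. Of 6 tested, 4 rose, 0 fell and 2 did not pass, with a median of 0.44, beside 9.58% higher and 7.79% lower over all genes. TRIB2 measured 7.14, 7.22 and 7.25 in PTTGKO cells, against 5.96, 6.40 and 6.27 in WT cells, and rose by 1.00 (SE 0.11, limma adjusted p = 0.000564), beside a difference of -1.03 for TRIB3. SESN1 measured 8.55, 8.34 and 8.49 in PTTGKO cells, against 7.48, 7.58 and 7.63 in WT cells, and rose by 0.90 (SE 0.09, limma adjusted p = 0.00022), beside -1.11 for SESN2. SESN1 is also a known p53 target. DDIT4L rose by 0.53 (SE 0.09, limma adjusted p = 0.00435), beside -1.24 for DDIT4, and LRP8, a receptor related to VLDLR, rose by 0.36 (SE 0.07, limma adjusted p = 0.00942). TRIB1 (0.17) and CHAC2 (-0.37) did not pass, and the arrays of CHAC2 overlapped.

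**Figure D4:**
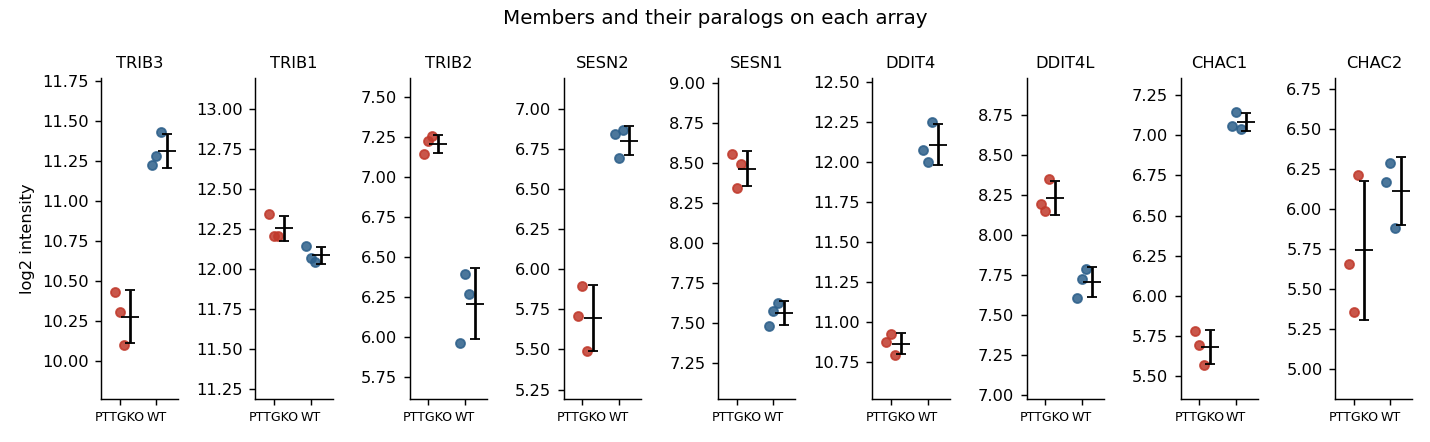
Normalized log2 intensity on each PTTGKO array (red) and WT array (blue) of TRIB3, SESN2, DDIT4 and CHAC1, each followed by its paralogs, with mean ± SD (n = 3 each). All PTTGKO arrays lie above all WT arrays for TRIB1, TRIB2, SESN1 and DDIT4L and below them for the 4 genes of the group.

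Further lists hold genes that share regulators or functions with the group. Of 27 mTORC1 regulators 2 rose and 1 fell, with a median of 0.04, shares no larger than the 9.58% and 7.79% of all genes. CASTOR1, an arginine sensor, rose by 0.42, RRAGB, a Rag GTPase, rose by 0.35, and MLST8, a subunit of the complex, fell by 0.38. DDIT4 and STC2 are also known to answer to low oxygen, and of 17 hypoxia genes 3 rose and 1 fell, with a median of -0.01. SLC2A1, the glucose carrier GLUT1, rose by 0.82 (limma adjusted p = 0.000198), P4HA2, a collagen prolyl hydroxylase subunit, rose by 0.48 and PFKFB4, a regulator of glycolysis, by 0.30, while INSIG2, which holds back sterol synthesis, fell by 0.40. DDIT4 and SESN2 are known p53 targets too. Of 19 others 10 rose and 1 fell, TNFRSF10B, a death receptor, with a median of 0.30. Over all genes 9.58% were higher and 7.79% lower. Like the other lists, that of p53 targets was made with earlier results of these data known. The lists overlap. TNFRSF10B and GDF15 were also counted with the other ATF4 and CHOP targets, and SESN1 with the paralogs. GDF15 and SESN1 are among the 10 that rose. Some genes that did not pass also stand in more than 1 list. TP53I3, a quinone oxidoreductase, measured 9.23, 9.26 and 9.33 in PTTGKO cells, against 7.27, 7.59 and 7.62 in WT cells, and rose 3.43-fold (limma adjusted p = 9.18e-06). CDKN1A, the inhibitor p21, rose 1.76-fold (limma adjusted p = 0.000143), and TP53INP1 rose 1.74-fold (limma adjusted p = 0.000208).

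Markers of the labelled cell type were also read. Of 14 gut epithelium markers 8 were tested, and 3 fell, the junction proteins CLDN7 (-0.70) and CDH1 (-0.53) and the adhesion protein EPCAM (-0.32). The median of the 8 was -0.07. Beside the marker counts here stand shares of 7.79% lower and 9.58% higher over all genes. The others did not pass, namely the keratins KRT19 (0.24, with all PTTGKO arrays above all WT arrays), KRT18 (0.06) and KRT8 (-0.17), CDX2 (0.03) and CLDN3 (0.06). The summed linear level of the 13 gut epithelium markers with a probe ran between 16541.9 and 17214 in PTTGKO cells. In WT cells it ran between 17690.8 and 18142.6. This sum includes CDX1, VIL1, LGALS4 and CLDN4, which were not above background on any array. Of the fibroblast markers 1 of 10 was tested, COL1A1, and 9 were above background on no array. Sums over all 10 were 272.3 to 277.4 in PTTGKO cells and 269.1 to 293.7 in WT cells. Of the endothelial markers 0 of 6 were above background. Of 10 blood cell markers 3 were tested, and CD68 (0.56) and HBA1 (0.44) rose, while CD14 did not pass and PTPRC, the marker of white blood cells, was not above background on any array. The blood cell sums were 521.2 to 577.2 in PTTGKO cells and 426.5 to 452.1 in WT cells. They run over the 9 with a probe, of which 5 were above background on no array. CD68 was the brightest of them (8.16 in PTTGKO cells and 7.60 in WT cells, log2), while HBA1 was dim (5.71 and 5.27). The part of these shifts in the values of the ATF4 and CHOP group was not tested.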

How the data were processed

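Total RNA of 3 PTTGKO and 3 WT samples of HCT116 cells was hybridised to HumanHT-12 V4 arrays. The authors deposited linear intensity values of every probe without normalization, and beside them a fraction headed as a detection p that rises with intensity, so 1 minus that fraction was used. The authors' processed values, deposited on a log2 scale, served as an alternative. The study's processing followed the array maker's protocol and used Partek, and the normalization is not given in the sources used here. A total of 12 lines without a probe name were left out.

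In R 4.3.3, limma 3.58.1 was used for background correction (nec, offset 16), log2 and quantile normalization. Probes with a detection p under 0.05 on at least 3 of 6 arrays were kept (17357 of 47310). Probes were named through the platform annotation, which lists 30115 probes and leaves 17195 unnamed. A gene with unnamed probes only was not read. Symbols were updated by gene identifier for 30068 probes and by accession for 18, and kept as listed for 21. Of the kept probes 13686 carried 1 gene. The brightest probe stood for each gene (10642 genes). Lines were compared with lmFit and eBayes and Benjamini-Hochberg adjustment. The number of arrays limits the precision, and an exact two-sided permutation of 3 against 3 arrays cannot go below 0.1, so no such test is given. The fit was tested on simulated data. The 10 genes and all lists were chosen with earlier results of these data known. Besides the 10 genes, the text names up to 4 genes of each list with the smallest p, the 5 genes most like the group, PTTG1 and the genes of counts of 5 or fewer. The genes with a CARE were named after their values were seen. Promoter sequences are RefSeq's (GRCh38.p14), and all 10 genes matched by symbol. Replicate numbers are shared between lines, but same-numbered arrays did not deviate together (correlations -0.07, -0.004 and -0.12), so they were not treated as pairs. Alternatives covered background correction, normalization, filters, probe choice, variance model, replicate block, threshold and leaving out each array.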

Additional observations from a re-analysis of the deposited data

How the results depend on the processing

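Read at the probe used for each gene, or at the mean of its probes where that was the alternative, all 9 detected genes of the group were lower in PTTGKO cells under the 18 alternatives. The count past the threshold was 8, or 9 with ATF4 where background was corrected with an offset of 50 or not at all, with the authors' values, and with eBayes with trend and robust. With every probe by itself this count reads the brightest ATF4 probe. There the ATF4 probe ILMN_2358457 passed as lower, and ILMN_1783394, at 0.33, was higher without passing. Because this contrast chose the genes, a steady count of the group supports nothing. Over all genes, 1849 passed, of which 44.8% were lower in PTTGKO cells. The count moved to 1140 with median scaling (38.2% lower) and 1044 without normalization between arrays (36.5% lower). It also moved to 936 with the methods' t-test and 742 at an adjusted p under 0.01. Leaving out each array in turn gave 1014 to 2183 genes that passed over the whole table. There were 1094 without PTTGKO replicate 2, 1026 without WT replicate 1 and 1014 without WT replicate 2. Each time an array was left out, 8 genes of the group passed as lower. The share of lower genes is not given for the t-test, the stricter threshold or the left-out arrays. The other ATF4 and CHOP targets that fell numbered 20, with 12 without normalization between arrays, 12 at an adjusted p under 0.01 and 14 to 20 when each array was left out. The causes were not tested. With the replicate number as a block (replicate block), 1346 genes, 8 of the group and 18 of the other targets passed. Levels of dim probes such as CHAC1 and SESN2 are limited by their signal over background, and VLDLR had none.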
